A study of Homo sapiens with 4 samples.

Results

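The 37 genes described here encode the proteins that work at a moving DNA replication fork and that put histones back onto the new DNA behind it. They were chosen by name, as subunits of the fork helicase, the DNA polymerases, the sliding clamp and its loader, the single-strand binding protein RPA, the enzymes that finish Okazaki fragments, the proteins that fire and protect forks, and the histone chaperones CAF-1 and ASF1. The choice was made with earlier results of these data known. All 37 were found among the 20263 genes of the count table. RNA was sequenced from HCT116, an established human colorectal carcinoma line labelled wild type, after 24 h with 32 µM HJ-4 (2 libraries) or with 0.1% DMSO, the vehicle (2 libraries). HJ-4 is an amide made from piperine, the pungent alkaloid of black pepper, and the study asked how it alters gene expression in these cells. The labels and methods give this dose, whereas the legend of the expression plot in the paper gives a lower one, and the sources used here do not give the DMSO content of the HJ-4 cultures.

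When a replication origin fires, the kinase CDC7 with its partner DBF4 helps CDC45 and the GINS complex join the MCM ring, and the resulting helicase unwinds the DNA. Polymerase alpha with primase lays down primers, polymerase epsilon extends the leading strand and polymerase delta the lagging strand, held on the template by the ring-shaped clamp PCNA, while RPA coats the single strands. Flaps and primers are then removed, nicks are sealed, and CAF-1 and ASF1 hand new histones to the daughter strands. Many of these genes are transcribed around the entry into S phase, and E2F factors are well known regulators of this group.

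Levels are given as CPM, the counts of a gene relative to the size of its library, with library sizes scaled by the trimmed mean of M-values (TMM) to allow for differences in composition. The libraries held 29769568 to 34359889 counts. The 10 most abundant genes took 9.65% to 10.6% of them and the mitochondrially encoded genes 6.01% to 7.73%. Of 8 colorectal epithelial markers, KRT8, KRT18, KRT19, EPCAM and CDH1 were well expressed, and VIL1, CEACAM5 and LGALS4 had at most 15 counts in a library. No leukocyte marker exceeded 13 counts, and 3 of 5 fibroblast markers were at 0 in every library, although COL1A1 lay between 58.2 and 62.6 CPM. The fold changes and p-values come from the quasi-likelihood test of edgeR, with p-values adjusted by the Benjamini-Hochberg method over the 14044 genes with enough counts to test. This test gives no standard error (SE) or interval. Both were derived from its fold change and test statistic, so they are approximate. FEN1, PCNA, PRIM2, RFC3, RFC5, RPA2, RPA3, POLD2, TIPIN and DBF4 have annotated pseudogene copies, so reads shared with such a copy make their counts less certain. The methods describe biological triplicates, but the labels give 2 libraries for each treatment and do not tie either to a culture of its own. Each p-value thus rests on the spread between these libraries only, part of which may be technical. For each gene, edgeR draws that spread towards a trend over all tested genes.

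Across the fork and chromatin assembly genes, levels were lower in the HJ-4 libraries. All 37 genes could be tested. Their summed level was 1372 and 1443 CPM in the DMSO libraries against 1177 and 1124 CPM in the HJ-4 libraries, so both HJ-4 values lay below both DMSO values. No gene of the 37 had its highest level in an HJ-4 library: the highest was in DMSO replicate 1 for 17 genes and in DMSO replicate 2 for 20, whereas over all tested genes the highest library was a DMSO library in 53.7%. The log2 fold change, HJ-4 over DMSO, was negative for 34 genes (91.9%) and positive for RFC1, RFC3 and WDHD1, beside 49.3% negative among all tested genes. The median over the 37 was -0.30 (range -0.84 to 0.13), beside 0.00 over all tested genes. Fewer cells in S phase and less of each transcript per cell cannot be told apart in RNA from whole cultures.

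No single gene passed the adjusted threshold. At an adjusted p under 0.05, edgeR called 7 genes in the whole table (0.0498% of those tested), none of them a fork or chromatin assembly gene, and the smallest adjusted p among the 37 was 0.0857, for FEN1. At an unadjusted p under 0.05, 18 of the 37 (48.6%) were lower and none was higher, beside 7.93% of all tested genes that were lower by the same rule. Without HJ-4 replicate 2 this count was 10, and without HJ-4 replicate 1 it was 13. At an unadjusted p under 0.01, 11 were lower, beside 2.11% of all tested genes. Both HJ-4 libraries lay below both DMSO libraries for 26 genes (70.3%), beside 25.6% of all tested genes, and both lay above for 0 genes, beside 25.2%. The Wald test of DESeq2, run as an alternative, called 10 of the 37 lower at an adjusted p under 0.05, beside 1.84% of the genes for which it gave an adjusted p. These were CDC45, GINS1, POLE, POLD1, PRIM1, PRIM2, RFC5, FEN1, CHAF1A and ASF1B. Since the 37 were chosen with earlier results of these data known, the shares set beside all tested genes are descriptions. The share of 7.93% belongs to the edgeR fit with all libraries.

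**Figure D1:**
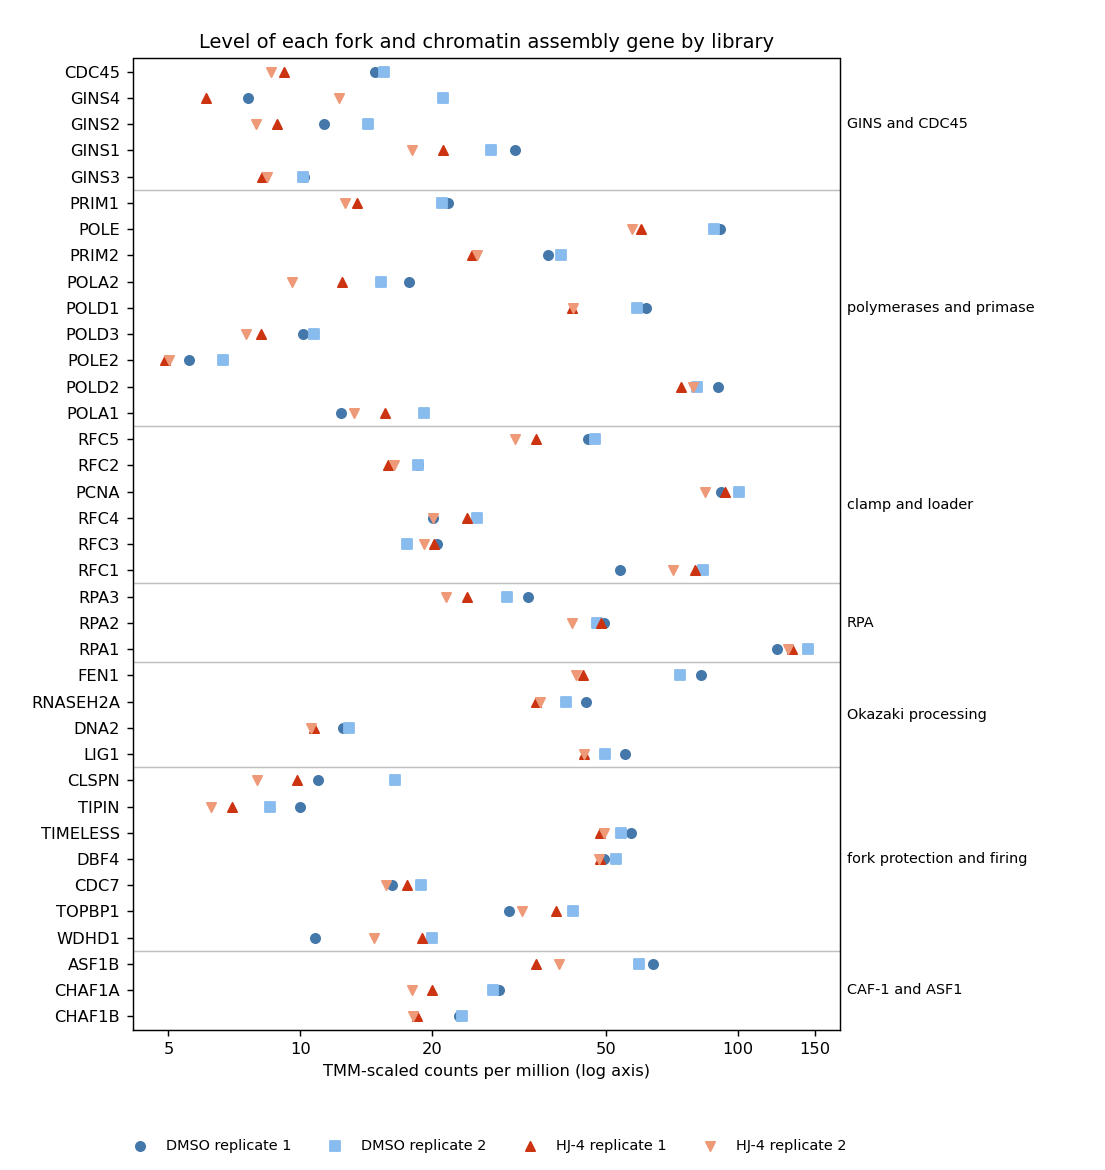
Level of each of the 37 genes in each library, in TMM-scaled CPM on a log axis, grouped by complex and ordered within a complex by fold change. Blue circles and squares are the DMSO libraries and red triangles the HJ-4 libraries. For 26 genes both triangles lie to the left of both blue marks, and for GINS4, POLA1, RFC1, TOPBP1 and WDHD1 the blue marks stand far apart.

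As the plot of levels by library shows, the genes differed in how closely the DMSO libraries agreed. The ratio of DMSO replicate 2 to DMSO replicate 1 was 2.80 for GINS4, 1.85 for WDHD1, 1.55 for RFC1 and for POLA1, 1.50 for CLSPN and 1.41 for TOPBP1. For these 6 genes the direction or size of the change depends on which DMSO library is used. Base composition was examined over the 12781 genes that passed a minimum count in every library and had an annotated protein-coding transcript. The difference of DMSO replicate 2 minus DMSO replicate 1 moved with it. The median was 0.09 on the log2 scale for transcripts under 40% GC and -0.11 for those over 55% GC. For HJ-4 replicate 2 minus HJ-4 replicate 1 the trend ran the other way, with medians of -0.09 and 0.07. Across the 37 genes the correlation of GC content with the log2 fold change was -0.39, a description over genes that share the same 4 libraries. In 5 classes of GC content the median log2 fold change lay between -0.58 and -0.08 for the 37 genes and between -0.03 and 0.04 for all tested genes. With the trends in GC content and transcript length removed, a setting chosen after the data were seen, the median of the 37 was -0.32. In that fit 21 were lower at an unadjusted p under 0.05, but the share of all tested genes lower by this rule is not given for it. Calls over the whole table also rose with this setting, from 7 to 38 at an adjusted p under 0.05.

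The promoters of these genes are shown for 5 that differed in response, since E2F factors bind the element TTTGGCGC and its close relatives. In RefSeq on GRCh38.p14, 32 of the 37 genes had an entry of 250 bases before to 50 bases after the transcription start, and GINS4, POLD3, DNA2, RPA2 and RPA3 were not matched. An octamer of the E2F type (TTTGGCGC, TTTCCCGC, TTTGCCGC or TTTCGCGC, on either strand) stood in 12 of 32 promoters (37.5%), against 3.33% of the 27305 promoters in the table. Those 27305 were not matched to the 32 in base composition, which ran from 38.3% GC (PRIM2) to 78.3% GC (GINS2) among the 32. Capitals below mark it, each sequence reads 5′ to 3′ along the gene's own strand, and positions count from the start, which is 1. POLE (chr12:132687293-132687592, minus strand, octamer from position -18) and GINS1 (chr20:25407423-25407722, plus strand, from position 6) were lower with HJ-4. PCNA (chr20:5126573-5126872, minus strand, from position -59) and RFC3 (chr13:33817899-33818198, plus strand, from position -55) carry an octamer too and had fold changes near 0. FEN1 (chr11:61792661-61792960, plus strand) had the most negative fold change of the 37, and its promoter holds none of the 4 octamers.
POLE: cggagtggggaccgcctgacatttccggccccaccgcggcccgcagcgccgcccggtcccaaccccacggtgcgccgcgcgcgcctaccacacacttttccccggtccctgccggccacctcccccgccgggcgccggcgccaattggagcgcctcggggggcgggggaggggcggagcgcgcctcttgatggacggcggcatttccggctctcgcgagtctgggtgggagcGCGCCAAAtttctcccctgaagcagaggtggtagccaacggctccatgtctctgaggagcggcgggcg
GINS1: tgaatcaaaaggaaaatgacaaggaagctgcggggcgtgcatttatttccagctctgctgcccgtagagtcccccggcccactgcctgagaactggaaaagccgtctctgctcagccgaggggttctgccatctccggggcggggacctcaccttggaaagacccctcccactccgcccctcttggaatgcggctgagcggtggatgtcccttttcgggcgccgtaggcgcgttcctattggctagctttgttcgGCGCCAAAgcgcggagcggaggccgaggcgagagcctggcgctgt
PCNA: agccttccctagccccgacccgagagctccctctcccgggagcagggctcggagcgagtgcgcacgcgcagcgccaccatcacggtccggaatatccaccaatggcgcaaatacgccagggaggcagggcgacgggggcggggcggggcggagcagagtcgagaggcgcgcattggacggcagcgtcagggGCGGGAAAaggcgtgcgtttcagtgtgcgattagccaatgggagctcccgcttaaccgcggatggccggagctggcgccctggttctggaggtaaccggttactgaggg
RFC3: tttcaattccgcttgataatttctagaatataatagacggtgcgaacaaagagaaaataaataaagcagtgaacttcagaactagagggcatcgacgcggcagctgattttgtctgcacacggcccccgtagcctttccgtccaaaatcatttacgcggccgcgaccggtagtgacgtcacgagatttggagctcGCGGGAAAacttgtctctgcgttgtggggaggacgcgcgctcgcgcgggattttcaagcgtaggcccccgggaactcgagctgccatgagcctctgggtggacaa
FEN1: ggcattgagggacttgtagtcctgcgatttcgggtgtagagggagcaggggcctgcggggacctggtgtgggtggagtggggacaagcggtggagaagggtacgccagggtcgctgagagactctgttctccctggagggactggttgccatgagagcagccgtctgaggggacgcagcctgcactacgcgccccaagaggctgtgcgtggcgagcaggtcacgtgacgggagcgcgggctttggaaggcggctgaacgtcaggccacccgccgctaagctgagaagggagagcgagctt

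The octamer was present in genes on either side of an unadjusted p of 0.05. It stood in 5 of the 16 matched promoters of genes lower at an unadjusted p under 0.05 and in 7 of the 16 others. Of these 7 genes, GINS3, POLE2 and LIG1 also had both HJ-4 libraries below both DMSO libraries, and PCNA, RFC3, POLA1 and TOPBP1 did not. The split by p thus does not part genes that changed from genes that did not. The counts hold for the 4 listed octamers only. Relatives outside the list were not counted, such as TTTGGCGG, which differs from TTTGGCGC in its last base. These letters, on either strand, occur in the promoters of CDC45 and CHAF1A, which were lower, and of RFC1, which was not. The counts thus do not show whether elements of the E2F type are rarer in the lower genes. A link of the octamer to the change was not tested. Besides the 4 genes printed, it occurred in GINS2 (from position -31), GINS3 (-5), POLA1 (-137), POLA2 (-53), POLE2 (-5), LIG1 (-114), CLSPN (-5) and TOPBP1 (-7). The CCAAT box, the letters CCAAT on either strand and bound by NF-Y, stood in 17 of 32 promoters (53.1%) against 35.7% of all promoters, in 11 of the 16 lower genes and in 6 of the 16 others. The letters TTTGAA, the element called CHR, stood in 2 of 32 (6.25%) against 15.4% of all promoters. None of the octamers contains CCAAT, and matches that touch at their ends were not counted apart. The shares over all promoters were not matched for base composition for any of these elements. A match is a description of the letters, not a bound site.

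In the helicase group, CDC45, the factor that locks the MCM ring into an active helicase, was lowest relative to DMSO. CDC45 was at 14.8 and 15.6 CPM with DMSO and at 9.16 and 8.57 CPM with HJ-4. Both HJ-4 libraries lay below both DMSO libraries, with a log2 fold change of -0.78 (SE 0.12; edgeR adjusted p = 0.119). The 4 GINS subunits form a single complex with CDC45 at the fork, and each had a negative fold change. GINS1 was at 31.0 and 27.3 CPM with DMSO and at 21.2 and 18.0 CPM with HJ-4, so the log2 fold change was -0.57 (SE 0.13; edgeR adjusted p = 0.193). GINS2 had a log2 fold change of -0.61 (SE 0.16; edgeR adjusted p = 0.23) and GINS3 of -0.30, with a 95% interval of -0.60 to 0.01. GINS4 was the exception in precision. Its levels were 7.58 and 21.2 CPM with DMSO and 6.11 and 12.2 CPM with HJ-4, so the groups overlapped, and the log2 fold change of -0.65 (SE 0.57; edgeR adjusted p = 0.605) became 0.27 without DMSO replicate 2. Over the 5 genes the median log2 fold change was -0.61. At an unadjusted p under 0.05, 3 were lower, beside 7.93% of all tested genes.

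The polymerases and primase were the largest group, and all 9 had a negative fold change (median -0.53). At an unadjusted p under 0.05, 6 were lower, beside 7.93% of all tested genes. For 8 both HJ-4 libraries lay below both DMSO libraries, beside 25.6% of all tested genes. POLE, the catalytic subunit of polymerase epsilon, was at 91.2 and 88.2 CPM with DMSO and at 60.2 and 57.3 CPM with HJ-4. The HJ-4 libraries lay close together and well below the DMSO libraries, with a log2 fold change of -0.61 (SE 0.08; edgeR adjusted p = 0.104). Its accessory subunit POLE2 was at 5.57 and 6.65 CPM with DMSO and at 4.90 and 5.01 CPM with HJ-4, and its log2 fold change of -0.30 had a 95% interval that ran from -0.71 to 0.11.

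Both primase subunits were lower. PRIM1, which synthesises the RNA primer, was at 21.7 and 21.0 CPM with DMSO and at 13.5 and 12.6 CPM with HJ-4, so the log2 fold change was -0.71 (SE 0.11; edgeR adjusted p = 0.119). PRIM2, its regulatory partner, was at 36.8 and 39.4 CPM with DMSO and at 24.7 and 25.4 CPM with HJ-4, so the log2 fold change was -0.61 (SE 0.10; edgeR adjusted p = 0.131). Neither gene had overlapping groups, although 8.2% of the exonic bases of PRIM1 also lie in exons of HSD17B6 on the other strand or of NACA on the same strand. Reads there cannot be assigned to PRIM1 with certainty, and for NACA not even with strand. Within the same complex, POLA2, the accessory subunit of polymerase alpha, had a log2 fold change of -0.58 (SE 0.17; edgeR adjusted p = 0.247). POLA1, the catalytic subunit, had the largest p of the group. POLA1 was at 12.4 and 19.2 CPM with DMSO and at 15.6 and 13.3 CPM with HJ-4, so both HJ-4 values lay between the DMSO values (log2 fold change -0.13, SE 0.24; edgeR adjusted p = 0.815, 95% interval -0.73 to 0.47).

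Of the polymerase delta subunits, the catalytic POLD1 was at 61.8 and 58.7 CPM with DMSO and at 41.7 and 41.9 CPM with HJ-4. Its groups stood apart by more than the distance within either, with a log2 fold change of -0.53 (SE 0.09; edgeR adjusted p = 0.134). Of its exonic bases, 8.6% are shared with ENSG00000142539 on the same strand, which makes its count less certain. POLD3, an accessory subunit that binds PCNA, had a log2 fold change of -0.42 (SE 0.13; edgeR adjusted p = 0.248). POLD2, the scaffold subunit between them, was at 89.8 and 80.7 CPM with DMSO and at 73.9 and 78.9 CPM with HJ-4, and its log2 fold change of -0.16 had a 95% interval of -0.40 to 0.08.

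**Figure D2:**
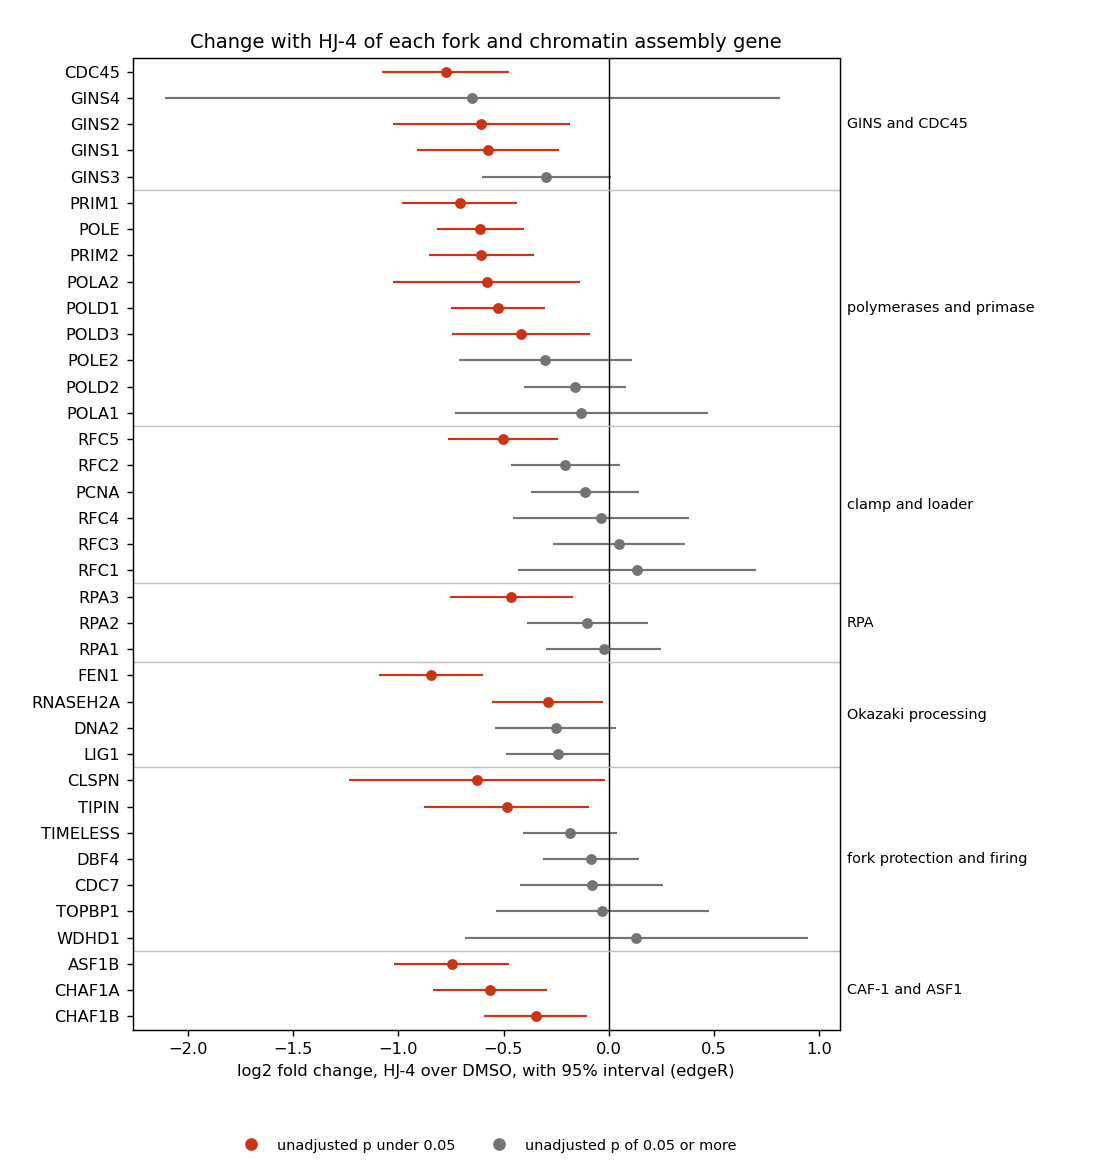
Log2 fold change, HJ-4 over DMSO, of each of the 37 genes with a 95% interval derived from the edgeR test, grouped by complex. Red points have an unadjusted p under 0.05 and grey points do not. The 18 red points are all negative, and the interval of GINS4 is the widest, from -2.11 to 0.81.

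The clamp and its loader stood closer to 0, as the plot of fold changes with intervals shows, with a median of -0.08 over 6 genes. Of these, 1 gene was lower at an unadjusted p under 0.05, beside 7.93% of all tested genes. That median became 0.01 without HJ-4 replicate 2. PCNA, the clamp that tethers polymerases to DNA, was at 91.5 and 100.5 CPM with DMSO and at 93.4 and 83.9 CPM with HJ-4. The groups overlapped, and the log2 fold change was -0.11 (SE 0.10; edgeR adjusted p = 0.604) with a 95% interval of -0.37 to 0.14. RFC5 was the exception among the 5 subunits of replication factor C, the loader that opens the clamp. RFC5 was at 45.5 and 47.2 CPM with DMSO and at 34.5 and 31.0 CPM with HJ-4, with no overlap and a log2 fold change of -0.50 (SE 0.10; edgeR adjusted p = 0.168). Exons of WSB2 on the other strand cover 5.7% of its exonic bases.

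For the other loader subunits the 95% interval included 0. RFC2 was at 18.5 and 18.6 CPM with DMSO and at 15.8 and 16.4 CPM with HJ-4, so the groups did not overlap and lay farther apart than the libraries within them (log2 fold change -0.21, 95% interval -0.46 to 0.05). RFC4 was at 20.1 and 25.3 CPM with DMSO and at 24.1 and 20.1 CPM with HJ-4, so the groups coincided (log2 fold change -0.04, SE 0.16; edgeR adjusted p = 0.931, 95% interval -0.45 to 0.38). RFC3 had a log2 fold change of 0.05 (95% interval -0.27 to 0.36) and RFC1, the large subunit, of 0.13 (-0.43 to 0.70). RFC1 was at 53.8 CPM in DMSO replicate 1 and at 83.4 CPM in DMSO replicate 2, with the HJ-4 libraries at 79.6 and 70.9 CPM, and without DMSO replicate 1 its log2 fold change was -0.15.

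In RPA, the trimer that protects single-stranded DNA, the smallest subunit differed and the larger ones gave values near 0. RPA3 was at 33.1 and 29.7 CPM with DMSO and at 24.0 and 21.6 CPM with HJ-4, with no overlap and a log2 fold change of -0.46 (SE 0.11; edgeR adjusted p = 0.208). RPA1, the large DNA-binding subunit, was at 123 and 144 CPM with DMSO and at 133 and 130 CPM with HJ-4, so the HJ-4 values lay inside the DMSO range (log2 fold change -0.02, SE 0.11; edgeR adjusted p = 0.93, 95% interval -0.30 to 0.25). RPA2 had a log2 fold change of -0.10 (95% interval -0.39 to 0.18). The exons of RPA3 share 3.7% of their bases with UMAD1 on the other strand.

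All 4 genes of Okazaki fragment processing had both HJ-4 libraries below both DMSO libraries (median log2 fold change -0.27), beside 25.6% of all tested genes. FEN1, the nuclease that trims the flap displaced at the end of each fragment (11:61792911-61797238 on GRCh38, plus strand, 2 exonic blocks), had the smallest p of the 37 genes. FEN1 was at 82.3 and 73.8 CPM with DMSO and at 44.3 and 42.6 CPM with HJ-4. Its level was thus changed by -44.3%, with both HJ-4 libraries far below either DMSO library (log2 fold change -0.84, SE 0.10; edgeR adjusted p = 0.0857), and it ranked 51 by p among all tested genes. RNASEH2A, the catalytic subunit of the ribonuclease that degrades RNA in RNA-DNA hybrids, had a log2 fold change of -0.29 (SE 0.10; edgeR adjusted p = 0.289), but 53.3% of its exonic bases are shared with THSD8 on the same strand, so its count is uncertain.

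LIG1, the ligase that seals the nicks, and DNA2, which cuts long flaps, differed less. LIG1 was at 55.1 and 49.8 CPM with DMSO and at 44.5 and 44.4 CPM with HJ-4, so the log2 fold change was -0.24 with a 95% interval of -0.49 to 0.01. DNA2, with the largest p of this group, was at 12.5 and 12.9 CPM with DMSO and at 10.8 and 10.6 CPM with HJ-4. Its groups did not overlap, and the log2 fold change was -0.25 (SE 0.11; edgeR adjusted p = 0.354).

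The genes of fork protection and firing were mixed, with a median log2 fold change of -0.08 over 7 genes. Of these, 2 were lower at an unadjusted p under 0.05, beside 7.93% of all tested genes. TIPIN, which with TIMELESS holds polymerases and helicase together at the fork, was at 10.0 and 8.54 CPM with DMSO and at 6.99 and 6.26 CPM with HJ-4. Its groups did not overlap (log2 fold change -0.48, SE 0.15; edgeR adjusted p = 0.257). TIMELESS itself had a log2 fold change of -0.18 (95% interval -0.41 to 0.04). CLSPN, the adaptor that carries the checkpoint signal from ATR to CHEK1, was at 10.99 and 16.4 CPM with DMSO and at 9.81 and 7.97 CPM with HJ-4, so the log2 fold change was -0.63 (SE 0.24; edgeR adjusted p = 0.307). DMSO replicate 1 of CLSPN lay nearer to HJ-4 replicate 1 than to DMSO replicate 2.

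The firing factors gave values near 0. DBF4 had a log2 fold change of -0.08 (95% interval -0.31 to 0.15) and its kinase CDC7 one of -0.08 (-0.42 to 0.26). TOPBP1, a scaffold for helicase assembly and an activator of ATR, was at 29.9 and 42.1 CPM with DMSO and at 38.4 and 32.1 CPM with HJ-4, so the HJ-4 values lay between the DMSO values (log2 fold change -0.03, SE 0.20; edgeR adjusted p = 0.956, 95% interval -0.54 to 0.48). WDHD1, which ties polymerase alpha to the helicase, was at 10.8 and 20.04 CPM with DMSO and at 19.0 and 14.8 CPM with HJ-4. Its log2 fold change of 0.13 (SE 0.32; edgeR adjusted p = 0.865) became -0.25 without DMSO replicate 1.

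All 3 histone chaperone genes were lower at an unadjusted p under 0.05, with no overlap between groups and a median log2 fold change of -0.56. Of all tested genes, 7.93% were lower by this rule, and 25.6% had both HJ-4 libraries below both DMSO libraries. ASF1B, a chaperone that delivers histones H3 and H4 to CAF-1, was at 63.8 and 59.3 CPM with DMSO and at 34.5 and 38.9 CPM with HJ-4. This was a change of -40.4% (log2 fold change -0.75, SE 0.11; edgeR adjusted p = 0.113). CHAF1A, the large subunit of CAF-1, was at 28.5 and 27.6 CPM with DMSO and at 20.02 and 18.0 CPM with HJ-4, so the log2 fold change was -0.56 (SE 0.11; edgeR adjusted p = 0.159). CHAF1B, its middle subunit, was at 23.1 and 23.5 CPM with DMSO and at 18.5 and 18.1 CPM with HJ-4, so each pair of libraries was tight (log2 fold change -0.35, SE 0.10; edgeR adjusted p = 0.234).

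Levels of different genes were compared in TPM, a transcript abundance computed from the counts that allows for the exonic length of each gene and the depth of the library. PCNA was the highest of the 37 on this scale, at 230 ± 14.0 TPM with DMSO and 216 ± 19.7 TPM with HJ-4 (SD, n = 2). With DMSO, FEN1 was at 120 ± 9.84 TPM and ASF1B at 106 ± 6.01 TPM, above RPA2 at 82.5 ± 2.50 TPM and RPA1 at 81.9 ± 8.93 TPM, which did not differ beyond their spread. With HJ-4 the order of these 4 genes changed. RPA1 was at 81.6 ± 2.42 TPM and RPA2 at 78.0 ± 9.62 TPM, now above FEN1 at 67.4 ± 2.97 TPM and ASF1B at 63.9 ± 4.43 TPM. The length used was the union of annotated exons, which for some genes is far longer than any transcript: 12006 against 3544 bases for the longest transcript of POLA2, 15547 against 5487 for POLA1 and 8005 against 2304 for POLD2. Their TPM would be higher by the transcript's length, so no order is given for the remaining genes.

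Ratios between 2 genes within a library need no scaling between libraries, and pairs were picked for them after the values were seen. FEN1 over PCNA, in counts per exonic base, was 0.574 and 0.469 with DMSO and 0.303 and 0.324 with HJ-4. RPA3 over RPA1 was 0.459 and 0.350 with DMSO and 0.308 and 0.282 with HJ-4, and RFC5 over RFC4 was 2.09 and 1.72 against 1.32 and 1.42. CDC45 over GINS3 was 2.49 and 2.62 against 1.92 and 1.75. In each of these 4 pairs both HJ-4 libraries lay below both DMSO libraries. The first gene of each pair already had the more negative fold change, so a lower ratio follows from the choice and is no separate test. POLE over POLD1 was 0.589 and 0.600 with DMSO and 0.576 and 0.546 with HJ-4, so the HJ-4 values were again below, by a smaller margin. By contrast, DBF4 over CDC7 was 2.40 and 2.18 with DMSO and 2.17 and 2.40 with HJ-4, and its groups overlapped. ASF1B over CHAF1A overlapped too, at 4.94 and 4.75 with DMSO and 3.81 and 4.79 with HJ-4, as did PRIM1 over PRIM2. The other pairs computed were lower in both HJ-4 libraries. For CDC45 over GINS1 this was so only barely (1.287 and 1.533 against 1.165 and 1.283). The same holds for PCNA over RFC1 (8.141 and 5.765 against 5.618 and 5.662), where DMSO replicate 2 lay close to the HJ-4 libraries.

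**Figure D3:**
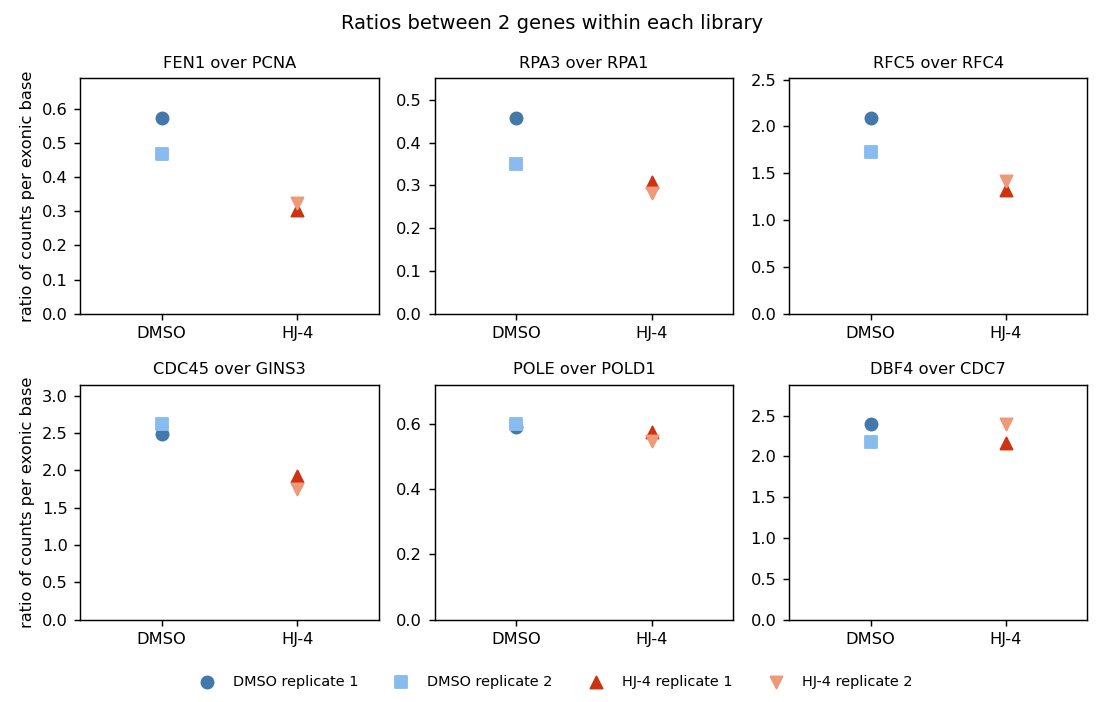
Ratio of counts per exonic base between 2 genes in each library, 1 panel for each pair, on linear axes from 0. Blue marks are DMSO libraries and red marks HJ-4 libraries. FEN1 over PCNA, RPA3 over RPA1, RFC5 over RFC4 and CDC45 over GINS3 are lower in both HJ-4 libraries, and DBF4 over CDC7 overlaps between the groups. The pairs were picked after the values were seen.

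The remaining genes of the pathway, 45 in all and none of them among the 37, showed a smaller shift. Their median log2 fold change was -0.12 (range -0.69 to 0.36), with 33 negative and 12 positive. None passed the adjusted threshold in edgeR (smallest adjusted p = 0.102). At an unadjusted p under 0.05, 16 were lower (35.6%), beside 7.93% of all tested genes, and 1 was higher. Both HJ-4 libraries lay below both DMSO libraries for 20 (44.4%), beside 25.6% of all tested genes. Without HJ-4 replicate 2 the count of 16 was 8. DESeq2 called 6 of the 45 lower at an adjusted p under 0.05, beside 1.84% of the genes for which it gave an adjusted p. The E2F octamers stood in 6 of the 35 promoters matched (17.1%).

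**Figure D4:**
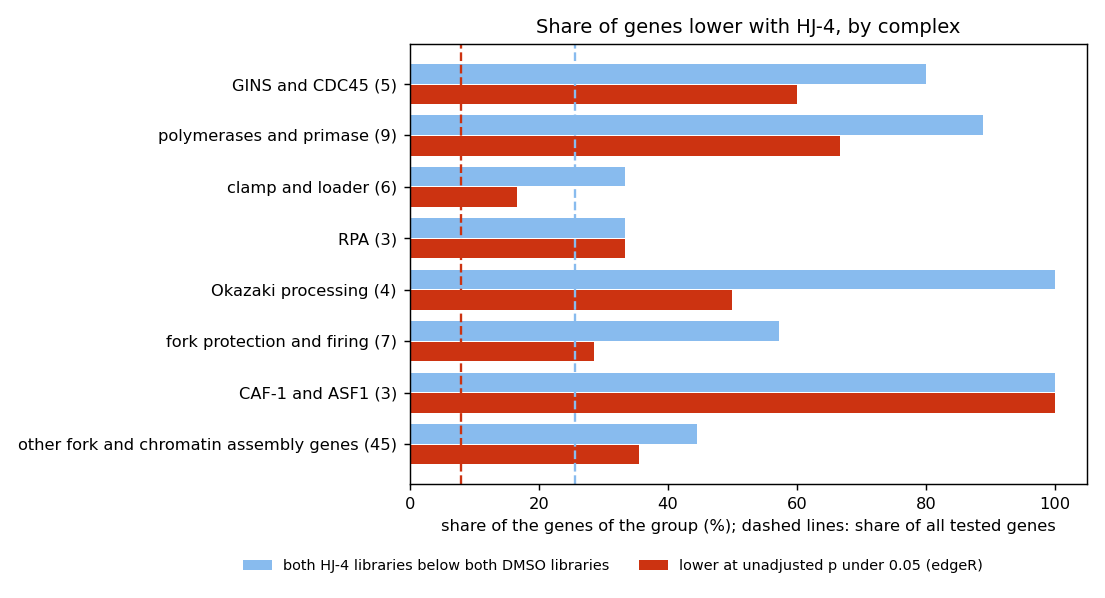
Share of the genes of each group, in percent with the number of genes in brackets, that had both HJ-4 libraries below both DMSO libraries (light blue) or were lower at an unadjusted p under 0.05 (red). Dashed lines give the same shares among all tested genes, 25.6% and 7.93%. The polymerases and primase, Okazaki processing and CAF-1 and ASF1 have the longest blue bars, and the clamp and loader and RPA the shortest.

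The MCM ring, the motor of the helicase that CDC45 and GINS complete, was among these genes. Of MCM2 to MCM7, 5 of 6 had a negative fold change and an unadjusted p under 0.05, beside 7.93% of all tested genes. Their median log2 fold change over the 6 was -0.51. MCM2 was at 69.3 and 76.3 CPM with DMSO and at 47.6 and 43.4 CPM with HJ-4 (log2 fold change -0.68, SE 0.10; edgeR adjusted p = 0.119). MCM5 had a log2 fold change of -0.56 (SE 0.09; edgeR adjusted p = 0.134) and RECQL4, a helicase needed for firing, one of -0.50 (SE 0.08; edgeR adjusted p = 0.132). MCM6 did not follow, at 38.0 and 55.1 CPM with DMSO and 54.3 and 46.5 CPM with HJ-4. HAT1, which acetylates new histone H4 before it reaches ASF1 and CAF-1, had the smallest p of the 45, at 55.3 and 55.5 CPM with DMSO and 34.7 and 33.9 CPM with HJ-4 (log2 fold change -0.69, SE 0.09; edgeR adjusted p = 0.102).

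The checkpoint kinases at stalled forks had the most positive values. CHEK1 was at 18.7 and 19.4 CPM with DMSO and at 22.0 and 26.4 CPM with HJ-4, with no overlap (log2 fold change 0.35, SE 0.13; edgeR adjusted p = 0.30). ATR, the kinase upstream of it, was at 12.9 and 21.7 CPM with DMSO and at 23.9 and 20.5 CPM with HJ-4, so the groups overlapped and the log2 fold change of 0.36 (SE 0.26; edgeR adjusted p = 0.538) had a 95% interval of -0.32 to 1.04.

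Markers of proliferation and of cell cycle arrest were measured in the same libraries. MKI67, a marker of cycling cells, was at 172 and 247 CPM with DMSO and at 91.5 and 90.1 CPM with HJ-4 (log2 fold change -1.20; edgeR adjusted p = 0.121), and CDKN1A, an inhibitor of cyclin-dependent kinases and a target of p53, was at 287 and 224 CPM with DMSO and at 388 and 435 CPM with HJ-4 (log2 fold change 0.69; edgeR adjusted p = 0.173). Both had groups that did not overlap. The whole proliferation list of 7 genes was mixed: 4 had negative and 3 positive fold changes, with a median of -0.10. The sums over marker lists were taken relative to total counts, without TMM scaling. They are thus not on the scale of the other levels, and small gaps between them should not be read. On that scale the proliferation list was at 847 and 1044 CPM with DMSO and 817 and 778 CPM with HJ-4. The epithelial markers were at 4501 and 4010 CPM with DMSO and at 4146 and 4322 CPM with HJ-4, so the groups overlapped. The part of a shift in cell cycle phase in the lower levels of the fork genes was not tested.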

How the data were processed

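The authors deposited whole-number read counts for each Ensembl gene ID in a single table, with a column for each library and no normalization. The paper's methods describe alignment with STAR to GRCh38 and counting with featureCounts, while the submitters' processing notes list HISAT2, bedtools and RSEM besides FastQC and Trimmomatic. The counter behind this table and its strand setting were not given in the sources used here. The handling of overlapping genes would alter the counts of genes such as RNASEH2A. Columns were matched to libraries by the names in the labels. The methods speak of biological triplicates, and 2 libraries a condition are analysed here.

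Symbols and gene models came from GENCODE version 44 on GRCh38 (20148 of 20263 IDs matched, and the other 115 held at most 0.0533% of a library). After filterByExpr and TMM scaling, genes were tested by quasi-likelihood (glmQLFit, glmQLFTest) in edgeR 4.0.16 under R 4.3.3, with treatment as the only term. edgeR took the place of limma, named in the methods, since the values are counts. Alternatives used DESeq2 1.42.0, limma 3.58.1, other scalings and filters, a replicate block and each library left out. Removal of GC content and transcript length trends was added after the data were seen. The scripts were tested on simulated data. TPM used the union of annotated exons. The genes, complexes and marker lists were chosen with earlier results of these data known. In each complex the genes with the smallest and the largest p were given in every library, and further genes were given so because of their role, after their values were seen. The correlation of GC content across genes is a description, and promoters came from the RefSeq table.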

Additional observations from a re-analysis of the deposited data

How the results depend on the processing

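The count of genes called over the whole table depended most on the method: 7 with edgeR, 12 without a filter on low counts, 13 with limma on log2(TPM + 1), 31 with the replicate block, 38 with GC and length trends removed, 46 with robust fitting and 570 with DESeq2. Leaving out 1 library at a time gave 0 to 88 calls. Under each of these settings except DESeq2, no fork or chromatin assembly gene passed the adjusted threshold.

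The 18 genes lower at an unadjusted p under 0.05 were 11 at an unadjusted p under 0.01 and 10 to 17 with 1 library left out, the lowest without HJ-4 replicate 2. For the other genes of the pathway that count of 16 was 8 to 14. The median log2 fold change of the 37 genes was -0.33 with total counts, -0.27 with limma on log2(TPM + 1) and -0.37 to -0.27 with 1 library left out, and it stayed negative under all settings tried. For counts at an unadjusted p under 0.05 in settings other than the main fit, no share of all tested genes is given. Such counts cannot be read against the share of the main fit.

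The median of the clamp and loader lay between -0.19 and 0.0099 with 1 library left out. The log2 fold change crossed 0 in that way for GINS4 (-1.25 to 0.27), RFC1 (-0.15 to 0.48), RFC3 (-0.060 to 0.16), RFC4 (-0.19 to 0.14), POLA1 (-0.41 to 0.22), RPA1 (-0.14 to 0.10), CDC7 (-0.19 to 0.035), TOPBP1 (-0.26 to 0.23) and WDHD1 (-0.25 to 0.64). RFC3 was also at -0.010 with GC and length trends removed, and TOPBP1 at 0.0014 with limma on log2(TPM + 1). The causes were not tested.

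The libraries share only a replicate number: the correlation of same-numbered libraries' deviations from their group means was -0.08 over all genes and 0.27 over the 37. GINS4 had the largest difference of replicate 2 minus replicate 1 in both conditions, 1.48 with DMSO and 1.00 with HJ-4 on the log2 scale. For WDHD1 (0.89 and -0.37), RFC1, POLA1, CLSPN and TOPBP1 it was positive with DMSO and negative with HJ-4. The value of 0.27 thus does not describe a pairing shared by the 37 genes. With the replicate block, 18 of the 37 genes were again lower at an unadjusted p under 0.05 and the median was -0.30, but 1 gene of the 18 differed: GINS4 entered (log2 fold change -0.56, edgeR adjusted p = 0.325), lower in both same-numbered pairs, and RNASEH2A left (-0.29, edgeR adjusted p = 0.459). With 2 libraries a condition, small differences such as those of the clamp loader are not resolved.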
